A study of Drosophila melanogaster with 16 samples.

Results

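FMR1-ADARcd-V5 joins the RNA-binding protein FMR1 to an RNA-editing domain, and the RNAs it edited in unstressed cells were compared between Drosophila S2 cells and dissociated larval brains. A gene was included when its A-to-G positions held at least 20 reads in each of 6 samples, the 3 S2 and the 3 brain replicates kept in Schneider's medium. Of the 5003 genes in the deposited bulk table, 1980 passed this read minimum. They carried 24415 A-to-G positions, with a median of 9 positions per gene, while 51 genes carried 1 position. No edited read was found for 4 of them in these samples, which left 1976 for the test of the level.

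FMR1 is an RNA-binding protein that associates with many mRNAs and regulates their translation, and its human homolog is lost in fragile X syndrome. ADAR turns adenosine into inosine, and the sequencer reads inosine as guanosine. In HyperTRIBE the hyperactive catalytic domain of ADAR is carried to RNAs by the protein fused to it, so that A-to-G changes mark the RNAs the fusion has met. The average editing frequency of a gene is the mean, over its A-to-G positions, of edited reads over all reads, and it is given here in percent. Each position counts alike in this mean, so that a few reads at a thinly read position can give a high value.

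S2 cells are an embryonic line with features of hemocytes, the blood cells of the fly. They came from a single stably transfected clone in which copper drives the fusion from a metallothionein promoter, and were induced with 1 mM copper for 4 h and then kept in Schneider's for 4 h. The brains came from larvae of the last instar that carried UAS-FMR1-ADARcd-V5-T2A-EGFP together with the driver elav-GeneSwitch-Gal4. RU486, given by bathing the larvae with recovery overnight, switches this driver on in neurons. The brains were pooled and dissociated, so that cells outside the driver's reach, such as glia, also gave RNA, and the cells were kept in Schneider's for 4 h. Each tissue had 1 uninduced library, labelled as not induced. Tissue, promoter, route and length of induction changed together between the groups and cannot be told apart. In bulk RNA, fewer cells with the fusion and less editing per cell cannot be told apart either.

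The S2 libraries held between 407499 and 458176 reads at A-to-G positions and the brain libraries between 247153 and 367841. The median gene had up to 127 reads in an S2 library and 66 to 101 reads in a brain library. Cell type markers were read at their A-to-G positions as a check of the labels. The 5 neuronal markers (elav, nSyb, brp, Syt1 and fne) summed to between 462 and 719 reads in brains and 17 to 21 in S2 cells. The 5 neuroblast markers gave 355 to 544 reads in brains against 1 to 3 in S2 cells, and mira, ase and wor were at 0 in every S2 library. Of 6 hemocyte markers, 4 were in the table and summed to 1100 to 1229 reads in S2 cells against 51 to 109 in brains. Of 5 glial markers, 3 were in the table, with 36 to 67 reads in brains and 13 to 26 in S2 cells.

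The genes were edited more in S2 cells than in brains. Their mean average editing frequency was 10.9%, 11% and 11.2% in the S2 replicates and 3.91%, 4.36% and 3.46% in the brain replicates. The 3 S2 libraries lay close together and far above all brain libraries, and brain replicate 3, the shallowest library, was the lowest. The group means were 11% ± 0.157 (SD, n = 3) in S2 cells and 3.91% ± 0.450 (SD, n = 3) in brains, a difference of 7.11 percentage points and a ratio of 2.82. The exact two-sided permutation test gave p = 0.1, the smallest that 3 samples against 3 allow. Both uninduced libraries were far lower, at 0.743% for S2 cells and 0.746% for brains. Reads at positions of Adar, which the catalytic domain of the fusion can also give, numbered 1843 to 2032 in the induced S2 libraries and 450 in the uninduced one. In brains they numbered 163 to 336 after induction and 233 without it. The part of this difference in the editing level was not tested.

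**Figure D1:**
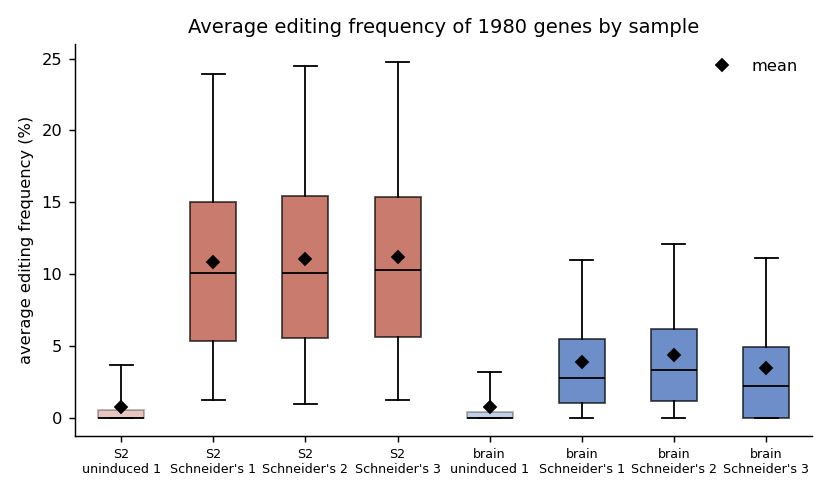
Average editing frequency in percent (y axis) of the 1980 genes in the uninduced and Schneider's libraries of S2 cells (red) and brains (blue). Boxes give the quartiles and the median, whiskers the 5th and 95th percentiles and diamonds the mean, which was between 10.9% and 11.2% in induced S2 cells, between 3.46% and 4.36% in induced brains and under 1% in both uninduced libraries.

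Edited reads were seen in both tissues for 1852 of the 1980 genes, and in each of the 6 libraries for 1184. These genes were chosen for reads in both tissues, at positions called on all libraries merged. No edited read was found for 1256 genes in the uninduced S2 library and 1352 in the uninduced brain library. The others had edited reads without induction, so the overlap is no measure of shared targets. Brains had no edited read for 116 genes and S2 cells for 16, with 4 genes in both counts. The mean was higher in S2 cells for 1850 genes and in brains for 126. For the 1864 genes with a brain mean above 0, the median ratio of S2 cells to brains was 3.03, with quartiles of 1.96 and 5.06.

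Tested gene by gene, 844 of the 1980 genes had a higher average editing frequency in S2 cells and 12 in brains (limma, Benjamini-Hochberg adjusted p under 0.05). Over all 4464 genes tested, 28% were called higher in S2 cells and 2.35% higher in brains, against 42.6% and 0.606% of the genes with the read minimum. All 3 S2 replicates lay above all 3 brain replicates for 1324 genes, or 66.9%, against 45.3% of all genes tested. The opposite held for 26 genes, or 1.31%, against 4.03%. Positions were called on all libraries merged, and the S2 libraries held more reads at them and a higher edited share. The part of this in the counts by tissue was not tested. The share called higher in S2 cells went from 27.1% of the 495 genes with the fewest reads, 20 to 33 in their shallowest library, to 58.6% of the 495 with the most, while the median difference was between 6.21 and 6.89 percentage points in each of 4 such groups. With reads thinned at each position to the lowest of the 6 libraries, a setting chosen after the data were seen, 298 genes were called higher in S2 cells and 9 in brains. After division of each library by its mean, 39 genes were higher in S2 cells and 25 in brains. Leaving out brain replicate 1, 2 or 3 left 460, 506 and 381 genes higher in S2 cells, and 8 higher in brains each time.

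**Figure D2:**
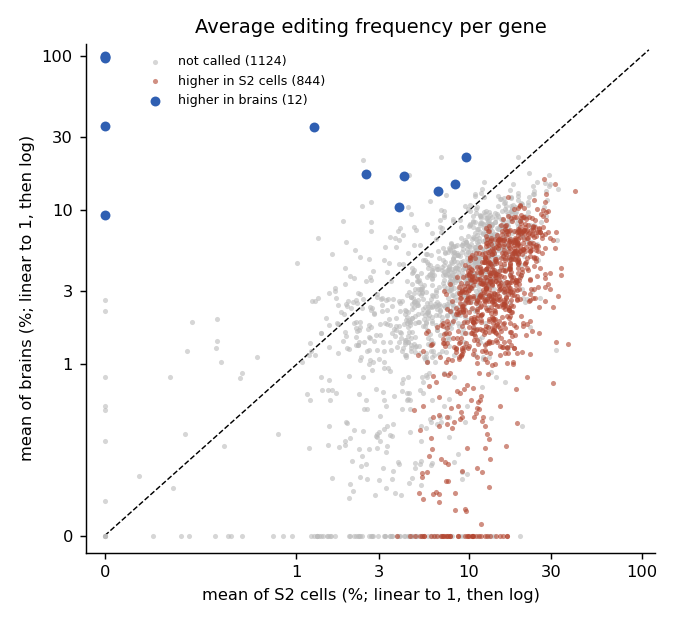
Mean average editing frequency of each gene in S2 cells (x axis) and in brains (y axis), in percent, on axes that are linear to 1 and logarithmic above. Each point is a gene, red for the 844 called higher in S2 cells, blue for the 12 called higher in brains and grey for the rest, and most points lie below the dashed line of equal values.

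Among the genes called higher in S2 cells with at least 3 positions, 8 differed by 27.7 to 35.9 percentage points. Vps13B, a member of a family of lipid transfer proteins, stood at 28.1%, 39.6% and 34% in S2 cells and 4.12%, 2.22% and 6.25% in brains. Every S2 library was far above every brain library, and neither uninduced library had an edited read. Its difference was 29.7 ± 3.23 percentage points (SE, adjusted p = 0.00560, limma). The gene lines (lin), a regulator of patterning, stood at 27.5%, 23.5% and 40.5% in S2 cells and at 2.68%, 0 and 0 in brains, a difference of 29.6 ± 4.68 points (SE, adjusted p = 0.0124). CG10631 had 43.7%, 49.3% and 30% in S2 cells and 14.5%, 17.5% and 7.78% in brains, with no edited read in either uninduced library. The other 5 of the 8 had edited reads in the uninduced S2 library. The uninduced S2 library stood at 16.7% for CG34417, 12.5% for CG2938, 20% for Cortactin, 16.7% for CG10555 and 25% for Pop2, a deadenylase of the CCR4-NOT complex. In that order, these averages came from 1 edited read of 17, 12 of 71, 7 of 111, 6 of 54 and 10 of 35. In these 5 genes the uninduced brain library was listed at 0. No DNA was read, so an A-to-G difference between the genomes of the S2 line and the flies cannot be told apart from editing. This was not tested. Of the 844 genes called higher in S2 cells, 59 had an average of at least 5% in the uninduced S2 library, against 77 of all 1980 genes. Without the positions edited in an uninduced library, the difference for Pop2 went from 28.4 to 4.49 percentage points and was no longer called (adjusted p = 0.409), and the other 4 stayed called, by 13.1 to 25.2 points. Cortactin had a difference of -0.207 points over its positions with 10 reads in each library, and of 7.47 points with reads pooled over the gene (adjusted p = 0.125).

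Some genes edited in all S2 libraries had no edited read in the 3 brain libraries. One was sav (salvador, a scaffold of the Hippo pathway), with 12%, 21.1% and 16.5% in S2 cells. Its 68 brain reads with none edited allow a share of up to 4.41%, for counting error only. PlexB, a semaphorin receptor, had 10.4%, 18.1% and 18.8% in S2 cells and no edited read among 79 in brains, which allows up to 3.8%. CG11771 (15%, 13.1% and 17.3% in S2 cells) and CG5037 (17.8%, 16.2% and 15.4%) likewise had no edited brain read, with limits of 3.16% and 3.57%.

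The 12 genes called higher in brains were mostly edited to a like share in the uninduced brain library. All 12 had edited reads there, 11 of them at an average of at least 5%, and none had an edited read in the uninduced S2 library. The 3 mitochondrial genes, mt:CoI, mt:ATPase6 and mt:CoIII, which encode subunits of cytochrome c oxidase and ATP synthase, had 1 position each. mt:CoI was at 100% in the 3 brain libraries and 0 in the 3 S2 libraries, and the uninduced brain library was at 99%. mt:ATPase6 had 98.3% to 100% and mt:CoIII 93% to 100% in brains, with 100% in uninduced brains for both and 0 in S2 cells. At these 3 positions the difference between the uninduced libraries was as large as that between the induced ones. No DNA was read, so an A-to-G difference between the genomes of the flies and the S2 line cannot be told apart from editing. This holds for every gene with a like share in uninduced brains or in uninduced S2 cells, and it was not tested.

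Hsromega, the long noncoding heat shock RNA omega (chromosome 3R, 21296127 to 21317836, BDGP6), was listed at 0 in all S2 libraries and at 34.7%, 34.7% and 36.5% in brains, with 31.8% in uninduced brains. RpL7A, a protein of the large ribosomal subunit, had 1.89%, 1.11% and 0.769% in S2 cells against 33.6%, 33.4% and 37.4% in brains, with 28.3% in uninduced brains. Act5C, the cytoplasmic actin (chromosome X, 5900861 to 5905399), had 7.38%, 6.09% and 6.35% in S2 cells and 11.3%, 13.4% and 15.3% in brains, with 14% in uninduced brains. Other actin genes are close in sequence, and reads of Act5C are uncertain to that extent. TBPH, the fly homolog of TDP-43, had 5.90%, 9.09% and 10% against 14.7%, 15% and 14.5%, and its uninduced brain value of 18.4% was above all of them. EndoA (endophilin A, which acts in synaptic vesicle endocytosis) was at 13.8% in uninduced brains and 16.8% to 26.3% in induced ones, and CG34133, olf413 and CG2765 had uninduced brain values of 14.3%, 9.35% and 8%.

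Without the positions edited to at least 5% in either uninduced library, 1 gene in place of 12 was called higher in brains and 810 in place of 844 higher in S2 cells, of which 749 were among the 844. The gene left in brains was Ip259, named after its values were seen, a homolog of a yeast ribosome assembly factor. It carried 1 position (2L, 10409251) with 13%, 8.11% and 6.90% in brains, no edited read among 106 in S2 cells, and 1 edited read of 56 in uninduced brains. Its difference was -9.32 ± 1.90 percentage points (S2 cells minus brains, SE, adjusted p = 0.0227). For Act5C, TBPH, CG34133, olf413 and CG2765 the direction turned, and EndoA and RpL7A kept their direction without passing the test. The mitochondrial genes had no position left, and Hsromega had positions left but no edited read at them in either tissue. Act5C and TBPH were then called higher in S2 cells, by 5.76 points (adjusted p = 0.0211) and 11.1 points (adjusted p = 0.0129).

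**Figure D3:**
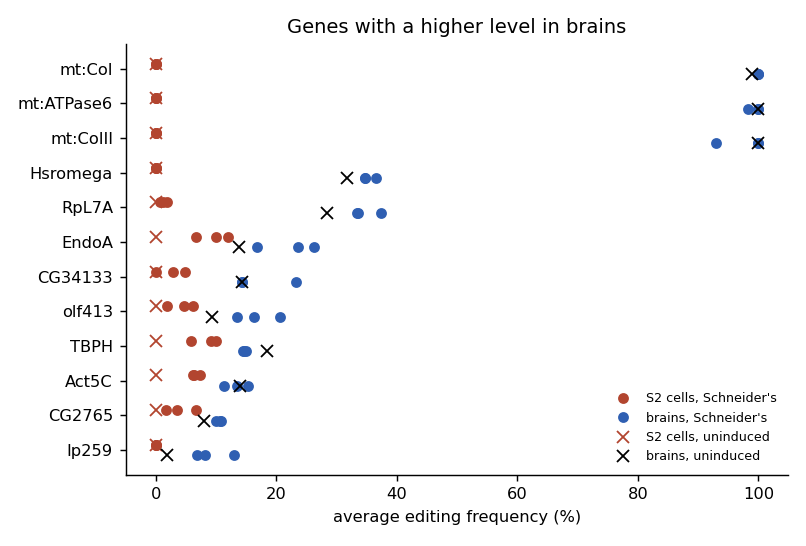
Average editing frequency in percent (x axis) of the 12 genes called higher in brains, with 1 dot for each Schneider's replicate of S2 cells (red) and brains (blue) and crosses for the uninduced S2 (red) and brain (black) libraries. The uninduced brain cross lies at or near the induced brain dots for most genes, and Ip259, at 1.79% without induction and 6.90% to 13% with it, lies apart.

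Since most genes were lower in brains, their order was compared as well. Each gene was given its percentile rank among the 1980 genes in each library, so that 100 is the most edited gene. The order was kept in part. Across genes, which are not independent replicates and share their library and reads, Spearman's rho was 0.734 to 0.750 between S2 replicates, 0.473 to 0.485 between brain replicates and 0.366 to 0.412 between an S2 and a brain library. The rho between the group means was 0.528, and 0.555 over the 1110 genes with at least 50 reads in every library. Divided by S2 level into 4 groups of 495 genes, from low to high, the genes had median brain levels of 1.39%, 2.56%, 3.73% and 5.46%. Of the 198 most edited genes in each tissue, 55 were the same, which is 27.8% of each list. Single S2 libraries shared 46.5% to 47.5% of their top 198 with each other, single brain libraries 35.9% to 37.4%, and an S2 with a brain library 20.7% to 29.3%.

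Genes at the top in both tissues were found by the lower of their group means. BOD1 had the highest, with 26.3%, 17% and 14.1% in S2 cells and 20.6%, 23.3% and 22.5% in brains. Its uninduced brain value was 16.7%, from 1 edited read of 40. CG8878 had 24.4%, 30.6% and 26.3% in S2 cells and 17.7%, 16.6% and 14% in brains, with 3.33% and 0 in the uninduced libraries. Its level was called higher in S2 cells (adjusted p = 0.0197), while its ranks were 96.6 and 98.2. The gene shtd, a subunit of the anaphase-promoting complex, had 22.9% to 34.5% in S2 cells and 11.5% to 16.8% in brains. Ino80, a chromatin remodeler, had 11.2% to 30.3% against 15% to 19.7%, with no edited read in the uninduced libraries. Crtc, a coactivator of CREB, was at 14.3% and 15.7% in the uninduced libraries, and CG4911 at 10% in uninduced S2 cells, from 2 edited reads of 34. BOD1 turned without the positions edited in an uninduced library, and was then called higher in S2 cells by 17.6 percentage points (adjusted p = 0.0282). That step rests on the 1 edited read in uninduced brains. With reads pooled over the gene, BOD1 was 7.03 points higher in S2 cells and not called (adjusted p = 0.284).

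By rank, 44 genes stood higher in S2 cells and 47 in brains (limma on ranks, adjusted p under 0.05), or 2.22% and 2.37% of the 1980 genes. Of the 44, 43 were also called by level. No gene called higher in S2 cells by level ranked higher in brains by this test, and all 12 genes called higher in brains by level did. Without the positions edited in an uninduced library the counts were 10 and 11, of which 9 and 10 were among the 44 and 47. The counts fell to 4 and 13 without S2 replicate 1, to 2 and 18 without S2 replicate 2, and to 1 and 12 without S2 replicate 3. Without brain replicate 3, 28 and 38 were left. A gene listed at 0 takes the shared rank of all genes at 0, which was 1.71 on average in S2 cells and 10.6 in brains, where more genes were at 0.

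The genes that ranked higher in S2 cells included chico, sav, PlexB and Socs44A. The rank of chico, the insulin receptor substrate, was 86.1 in S2 cells and 22.3 in brains (adjusted p = 0.0172), from levels of 17.8%, 19.6% and 19.4% against 0.741%, 0 and 1.23%. The Hippo scaffold sav went from 77.3 to 10.6 (adjusted p = 0.0172) and PlexB from 73.9 to 10.6 (adjusted p = 0.0249). Socs44A, a suppressor of cytokine signalling, ranked at 94.7 and 25.4 (adjusted p = 0.0350), from 51.9%, 22% and 22.1% against 0, 3.70% and 0, while its level missed the threshold (adjusted p = 0.0532). The widest of these differences belonged to CG34417, lin, CG2938 and Socs44A, each above 94 in S2 cells and under 29 in brains. CG11771, CG5037, sav and PlexB were among the 9 that were still called without the positions edited in an uninduced library. Lin (adjusted p = 0.0560), chico (0.232), Socs44A (0.0741), CG34417 (0.128) and CG2938 (0.0799) were not.

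Of the 47 genes that ranked higher in brains, 34 had an edited read in uninduced brains and 19 had an average of at least 5% there, against 2.42% of all 1980 genes. Emc, an inhibitor of basic helix-loop-helix factors, ranked at 11.4 in S2 cells and 91.1 in brains, from 2.52%, 2.85% and 2.72% against 5.97%, 13.8% and 14.3%, with 10% in uninduced brains. Its edited reads were few, at 10 of 741 in S2 cells, 23 of 990 in brains and 3 of 404 in uninduced brains. Positions with few reads thus raised its averages in brains. Lpin (lipin, a phosphatidate phosphatase) and pigs, a protein of the cytoskeleton, had 7.14% and 16.7% in uninduced brains, which was within or near their range of 7.62% to 9.16% and 11% to 23.6% after induction. Without the positions edited in an uninduced library none of these 3 genes was called by rank (adjusted p of 0.464, 0.584 and 0.203 for emc, Lpin and pigs), and their levels turned to 2.22, 1.36 and 1.67 percentage points higher in S2 cells. Lap, the homolog of the clathrin adaptor AP180 of synapses, had 0.833%, 2.50% and 3.94% in S2 cells and 6.48%, 16.2% and 41.2% in brains, with 4.17% in uninduced brains. Its ranks were 10.6 and 93.3 (adjusted p = 0.00540), but its brain replicates spread widely and its level missed the threshold (adjusted p = 0.174). Over its positions with 10 reads in each library the direction of the level turned, to 0.392 percentage points higher in S2 cells.

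Other genes ranked higher in brains with little or no editing in the uninduced library. PH4alphaEFB, a prolyl hydroxylase of collagen, had 1.86%, 1.74% and 3.62% in S2 cells and 9.37%, 5.71% and 17.1% in brains, and no edited read in uninduced brains. It ranked at 10.1 and 87.8 (adjusted p = 0.00829), and at an adjusted p of 0.0238 without the positions edited in an uninduced library. Pen (importin alpha) and ph-d, a Polycomb group protein, were named after their values were seen. Pen had 5.49%, 5.70% and 3.58% against 6.26%, 8.17% and 7.78%, and ph-d 3.43%, 4.44% and 3.77% against 4.95%, 9.34% and 7.67%, with both at an adjusted p of 0.0261 by rank without those positions. The RNA-binding protein Syp, also named after its values were seen, had 8.57%, 9.67% and 3.75% in S2 cells and 12.9%, 13.6% and 11.4% in brains, with 0.875% in uninduced brains. All 3 brain values were above all S2 values, and its rank rose from 35.3 to 96.4 (adjusted p = 0.0248, and 0.0560 without the positions edited in an uninduced library).

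The genes named in the study were chosen by it on these samples, so their values are no independent evidence. Of 16 such genes 9 had the read minimum, and 5 of these (55.6%, against 42.6% of all 1980 genes) were called higher in S2 cells and none in brains. Rack1, a scaffold on the small ribosomal subunit, had 8.76%, 7.06% and 9.56% in S2 cells and 2.15%, 2.84% and 1.61% in brains (6.26 ± 1.22 points, SE, adjusted p = 0.0201). The others called were row, with 8.26% to 11.4% against 2.20% to 3.86%, the chromatin protein pzg, with 7.46% to 8.17% against 2.73% to 3.92% and a turned direction after division by the library means, the kinase Src42A, and eIF6, with 3.71% to 6.22% against no edited read among 126. No member of this list was called by rank, and the ranks of Rack1 were 40.7 and 42.5. The gene wdn missed the threshold (8.33% against 1.99%, adjusted p = 0.0695), as did Cyt-c-p, Khc and cbt. Khc, the heavy chain of kinesin, had 1.87%, 4.81% and 0 in S2 cells and 5.26%, 0.556% and 2% in brains, and the groups overlapped. Adar and Fmr1, whose reads can come from the fusion, had 9.77% to 11.8% against 1.04% to 5.08% (adjusted p = 0.0245) and 7.18% to 9.98% against 0.662% to 7.88% (adjusted p = 0.187).

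Gene lists were described by counts and by their median rank, beside a median of 51.4 in S2 cells and 48.6 in brains over all 1980 genes and a median difference in level of 6.71 percentage points. The share of a list called higher in S2 cells by level is to be read against 42.6% of all 1980 genes. A higher mean rank in brains was found for 1028 of the 1980 genes. Ranks in brains were less repeatable than in S2 cells, as the correlations above show. Of 13 hemocyte genes, 10 (76.9%) were called higher in S2 cells by level, none in brains, and 1 by rank. Their median level was 9.85% in S2 cells and 1.12% in brains, and their median rank 49.0 and 27.4. They held a median of 886 reads in S2 cells and 193 in brains. The filamin cher had 15.4%, 15.8% and 20.6% against 2.92%, 0 and 1.96%, and LanB2, a laminin chain, 13.2% to 14.8% against 1.04% to 5%. The transcription factor zfh1 had 13.9% to 22.5% against 3.68% to 6.26%. Divided by the mean of each library, 1 of the 13 was called, higher in S2 cells.

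Of 37 synaptic and excitability genes 9 had the read minimum, and their median rank was 53.8 in S2 cells and 71.8 in brains. By level 1 (11.1%) was called higher in S2 cells and none in brains, and by rank 2 were called higher in brains, lap and unc-13. Unc-13, which primes synaptic vesicles, had 4.58%, 6.25% and 9.82% in S2 cells and 9.17%, 5.65% and 6.83% in brains, with overlapping groups, 3.30% in uninduced brains, and ranks of 32.4 and 82.6 (adjusted p = 0.0409). The gene called higher in S2 cells was Syx1A, a SNARE of the plasma membrane, with 19.6% to 22.6% against 1.41% to 5.05%, and it was at 18.8% in uninduced S2 cells. Without the positions edited in an uninduced library no member was called by level, unc-13 lost its call by rank (adjusted p = 0.102), with a level 1.06 points higher in S2 cells, and lap kept its own (adjusted p = 0.0491). The 5 neuronal identity and RNA-binding genes had median ranks of 54.5 and 79.5. Of these the transcription factor lola (14.7% against 6.46%, adjusted p = 0.0229) and the splicing regulator heph (9.26% against 2.19%, adjusted p = 0.0422) were called higher in S2 cells. Lola had 10% in uninduced S2 cells, from 3 edited reads of 209. Its direction turned without the positions edited in an uninduced library, where heph was no longer called (adjusted p = 0.0658). By rank 1 was called higher in brains, the RNA-binding protein msi (musashi), with ranks of 12.0 and 60.2 (adjusted p = 0.0228, and 0.0491 without those positions). Its levels of 3.53%, 0 and 4.44% in S2 cells and 3.51%, 4.69% and 2.83% in brains overlapped. Of 20 adhesion and guidance receptors 9 (45%) were higher in S2 cells and none in brains, with median ranks of 57.7 and 48.2, among them Ten-m (17.3% against 4.8%, adjusted p = 0.0102), a teneurin.

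The median difference in level was 1.36 percentage points for chaperones, 3.11 for ribosomal proteins and 2.72 for proteasome subunits. After division of each library by its mean these medians were -2.45, -1.53 and -0.500, against 0.721 over all genes. The 21 chaperones had a median level of 2.81% in S2 cells and 2.57% in brains, and median ranks of 12.4 and 46.2. By level 1 of them (4.76%) was called, higher in S2 cells, the mitochondrial Hsc70-5 (6.16% against 0.693%, adjusted p = 0.0464), and by rank 3 were called higher in brains. These included CCT1, a subunit of the chaperonin (1.67% against 3.14%, ranks of 7.46 and 52.9, adjusted p = 0.0387), and the small heat shock protein Hsp26 (1.67% against 2.98%, ranks of 6.95 and 51.5, adjusted p = 0.0368). Neither passed the test of the level, nor that of the rank without the positions edited in an uninduced library (adjusted p = 0.0619 for both). The 38 ribosomal protein genes, with a median of 1 position each, had median levels of 5.61% and 3.19%, and 8 (21.1%) were called higher in S2 cells and 1, RpL7A, in brains, where 2 were called higher by rank. RpLP0 was the most different of them in S2 cells, with 19.3%, 32.8% and 30% against 8.30%, 7.19% and 1.61%. Of 20 proteasome genes 2 (10%) were called higher in S2 cells and none in brains, with median levels of 4.30% and 1.28%. Of 20 genes of the respiratory chain and ATP synthase 4 (20%) were higher in S2 cells and 3, the mitochondrial genes described above, in brains by level and by rank. Of 5 mitochondrial ribosomal proteins 1 was higher in S2 cells, and the 1 glial marker with the read minimum was not called.

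Of 29 translation factors 15 (51.7%) were called higher in S2 cells and none in brains. These included eIF4G1 (15.9% against 3.10%, adjusted p = 0.00669) and eEF1alpha1 (19.8% against 7.32%, adjusted p = 0.00524), though eEF1alpha1 turned direction when each library was divided by its mean. Of 38 granule and RNA-binding proteins 22 (57.9%) were higher in S2 cells and 1 in brains, TBPH, and by rank TBPH and Syp were called higher in brains. Atx2, the fly ataxin-2, had 26.3%, 25.8% and 20.8% against 4.95%, 6.24% and 3.61% (adjusted p = 0.00499), with 6.67% in uninduced S2 cells. Hrb87F, an hnRNP, had 21.5% to 21.9% against 3.06% to 7.62%, with 14.7% in uninduced S2 cells, from 7 edited reads of 285. Of 15 neuroblast polarity and fate genes 9 (60%) were higher in S2 cells and none in brains, with median ranks of 68.1 and 65.4, and by rank 1, Syp, was higher in brains. Of the 15, 4 were higher in S2 cells without the positions edited in an uninduced library. Dlg1 had 17.1% to 26.4% against 0 to 3.33%, the afadin cno 12.3% to 20% against 1.88% to 3.39%, and the kinase polo 16.9% to 21.2% against 2.27% to 5.91% with 11.1% in uninduced S2 cells.

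Of 15 classic targets of FMRP 5 (33.3%) were higher in S2 cells and none in brains, and 12 of the 15, against 1028 of all 1980 genes, had a higher rank in brains without any of them passing the test of the rank. The 15 include Fmr1, whose reads can come from the fusion and which ranked at 41.4 in S2 cells and 55.2 in brains. Dhc64C, the heavy chain of dynein, had 20.3%, 20% and 18.7% in S2 cells and 11.9%, 11.6% and 9.21% in brains over 81 positions. Its level was called higher in S2 cells (8.75 ± 1.31 points, SE, adjusted p = 0.0114) and its ranks were 88.0 and 94.3, and the direction turned after division by the library means. Pka-C1, the catalytic subunit of protein kinase A, had 14.6% to 26% against 3.61% to 5.11% (adjusted p = 0.0197), and chb, the fly CLASP, 8.66% to 12.8% against 1.92% to 2.45% (adjusted p = 0.0211). Among 38 chromatin regulators, with median ranks of 50 and 67.3, 12 (31.6%) were higher in S2 cells by level and 1, ph-d, in brains by rank. Jarid2 had 24% to 27.8% against 6.90% to 7.74%, and the acetyltransferase nej 27.3% to 28.7% against 10.6% to 14.2%, where the order turned after division by the library means. Of 27 cell cycle genes 10 (37%) were higher in S2 cells, near the share of all genes, with E2f1 at 22.5% to 26.2% against 4.30% to 7.27% and CycA at 13.1% to 19.7% against 0 to 2.79%. Of 41 genes of the cytoskeleton 17 (41.5%) were higher in S2 cells, near the 42.6% of all genes, and 1, Act5C, in brains. The myosin didum had 14.4% to 23.3% against 0 to 3.44%. Of 4 known ADAR substrates with the read minimum 1 was higher by level in S2 cells, Adar, and 2 by rank in brains, lap and unc-13.

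**Figure D4:**
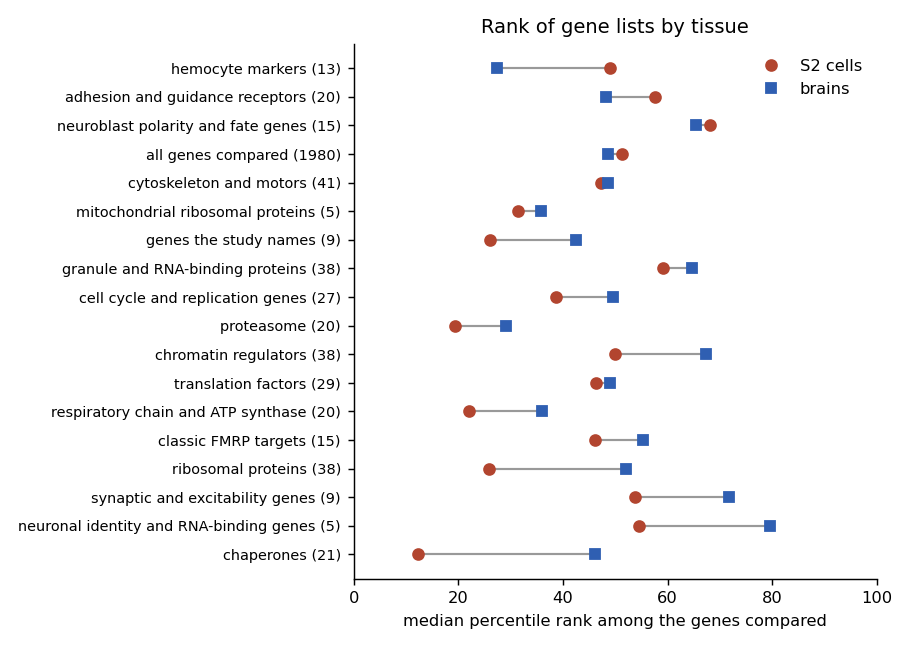
Median percentile rank (x axis, 0 to 100) of the genes of each list in S2 cells (red circles) and in brains (blue squares), with the number of genes compared in brackets, for lists of at least 5 genes. Hemocyte markers lay at 49.0 in S2 cells and 27.4 in brains, synaptic genes at 53.8 and 71.8, and chaperones at 12.4 and 46.2.

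Single positions were compared where each of the 6 libraries had at least 10 reads. This held for 4461 positions in 1163 genes, of which 4003 had an edited read and were tested. By position, 395 were more edited in S2 cells (9.87%) and 16 in brains (0.4%), by limma at an adjusted p under 0.05. Edited reads were seen in both tissues at 2410 positions, in S2 cells only at 1345 and in brains only at 248. Of the positions edited in brains, 90.7% were also edited in S2 cells, and of those edited in S2 cells 64.2% were also edited in brains. Neither tissue had an edited read at 458 positions. Edited reads were so common that these shares lie not far above those over all 4461 positions, and the overlap was not tested. Since positions were called on all libraries merged, the counts for S2 cells and brains also depend on that step, whose part was not tested. Across positions, Pearson's r between the pooled shares was 0.621, and 0.675 over the 3924 positions with no edited read in either uninduced library. Within genes of at least 5 tested positions, the median Spearman's rho between tissues was 0.629 over 322 genes and above 0 in 300. The most edited position of the gene was the same in both tissues for 190 of these 322 genes, and the share to be met by chance was not computed. Leaving out 1 brain replicate left 35 positions called higher in S2 cells without replicate 1, 63 without replicate 2 and 64 without replicate 3. Without replicates 1 and 2 in turn, 8 and 6 were left as higher in brains.

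The following positions were taken from those with no edited read in either uninduced library, outside chromosome arm 2R, to show the adenosine and its neighbours. They are written as the transcript has them, with the edited adenosine in capitals and its 5′ and 3′ neighbours in lower case. A position of hdc (headcase; 3R, 30361480, + strand, triplet cAg) was edited in 42.3%, 38.1% and 57.9% of reads in S2 cells and 32.2%, 43.8% and 15% in brains. A position of Spp, the signal peptide peptidase (2L, 543724, - strand, tAg), had 56.1%, 60% and 49.1% against 29.4%, 43.5% and 15.4%. A position of eIF3a (3R, 4431502, - strand, tAc) had 34.6%, 58.8% and 50% against 28.9%, 25.9% and 40%. These were among the most edited in both tissues, all in coding exons, and none passed the test of a difference (adjusted p between 0.0836 and 0.300 for the 3).

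CG1646 held a position of each kind on 3R. At 28815900 (tAt) the share was 50%, 63.6% and 53.8% in S2 cells and 23.1%, 50% and 18.2% in brains (adjusted p = 0.134). At 28815846 (cAg) it was 47.4%, 60% and 68.4% against 10.5%, 23.1% and 9.09% (adjusted p = 0.0143). The widest difference was in PDZ-GEF, a guanine nucleotide exchange factor (2L, 6328743, + strand, tAt), with 35.7%, 83.3% and 66.7% in S2 cells. None of 57 brain reads was edited there, which allows a share of up to 5.26% (adjusted p = 0.0273). A position of beta-Spec, the spectrin (X, 17666549, + strand, cAg), had 50%, 64.3% and 72.7% against 10%, 5.88% and 34.8% (adjusted p = 0.0360).

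Of the 16 positions called higher in brains, which lay in 15 genes, 9 had an edited read in uninduced brains and 7 a share of at least 5% there. The following 4 were named after their values were seen. At these too, a genomic A-to-G difference between the flies and the S2 line cannot be told apart from editing. A position of Act5C (X, 5902796, + strand, cAt) was edited in none of 140 S2 reads and in 65.3%, 82% and 97.5% of the brain reads, with 98% in uninduced brains. A position of CCT7 (3R, 8805873, + strand, cAt) had none of 139 in S2 cells and 42.9%, 37.5% and 46.2% in brains, with 45.5% in uninduced brains. A position of RpL7A (X, 6532067, - strand, gAc) had none of 58 in S2 cells and 57.1%, 53.1% and 70.4% in brains, with 56.7% in uninduced brains. A position of Lam, a lamin (2L, 5543613, + strand, cAc), had none of 62 against 59.1%, 28.6% and 35%, with 39.1% in uninduced brains. The remaining 7 of the 16 had no edited read in the uninduced brain library. For the positions of Hrb27C, Mi-2, stg and jim that follow, its 17 to 53 reads cannot show that editing was absent there. A position of Hrb27C, an hnRNP (2L, 6925153, + strand, cAc), had 0 of 90 reads in S2 cells, up to 3.33%, and 17.6%, 24.3% and 9.52% in brains (adjusted p = 0.0424), with none of 53 reads edited in uninduced brains, which allows up to 5.66%. A position of Mi-2, a chromatin remodeler (3L, 19886862, - strand, cAt), had 0 of 63 reads in S2 cells and 10.5%, 14.3% and 18.2% in brains (adjusted p = 0.0174), and the 17 reads of uninduced brains allow up to 17.6%. A position of stg, the phosphatase string (3R, 29253827, - strand, cAg), had 0, 1.59% and 0 in S2 cells and 13.5%, 24.3% and 10% in brains, and missed the threshold (adjusted p = 0.0580), while the 30 reads of uninduced brains allow up to 10%. So did a position of jim (3L, 22798915, - strand, cAt), with 0 of 59 reads against 20%, 16.7% and 7.14% (adjusted p = 0.0510) and a limit of 10.7% from 28 reads in uninduced brains. In 7 genes, among them Mi-2, Hrb27C, Act5C, CCT7 and Lam, some positions were called higher in S2 cells and others in brains.

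The tissues also differed in where along the transcript editing was high. Over all 24415 positions of the genes compared, 88.6% lay in coding exons, 6.15% in 3′ UTRs and 4.08% in 5′ UTRs. In S2 cells 13%, 13.1% and 12.7% of the reads at 3′ UTR positions were edited, against 9.81%, 9.72% and 9.93% at coding positions. In brains 3′ UTR positions had 3.83%, 4.24% and 3.15% and coding positions 4.00%, 4.52% and 3.57%. The 3′ UTR was thus above the coding region in each induced S2 library and below it in each induced brain library. The ratio of 3′ UTR to coding share was 1.32 ± 0.0333 (SD, n = 3) in S2 cells and 0.927 ± 0.0387 in brains, and the groups did not overlap (exact two-sided permutation p = 0.1, the smallest possible). At 5′ UTR positions the share was 4.14% ± 0.196 and 2.40% ± 0.365, so that S2 cells exceeded brains 1.73-fold in the 5′ UTR, 2.44-fold in coding exons and 3.46-fold in the 3′ UTR.

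This comparison was chosen after the data were seen and was repeated on other sets of positions. With the 1335 3′ UTR positions that had no edited read in either uninduced library, the ratios were 1.27 ± 0.0256 and 0.826 ± 0.0355. Within the 660 genes that held both kinds of position they were 1.39 ± 0.0365 and 0.995 ± 0.0430. As a mean over positions in place of pooled reads they were 1.38 ± 0.0294 and 1.06 ± 0.0396, so that the 3′ UTR was then above the coding region in brains too. In all of these sets the ratio was higher in every induced S2 library than in every induced brain library. Over all positions the uninduced libraries had ratios of 1.97 in S2 cells and 1.28 in brains. Within genes with both kinds of position these were 2.07 and 1.57, and as a mean over positions 2.63 and 1.78. In these last 2 sets uninduced brains were above the induced S2 libraries as well. No gene gave more than 3.26% of the reads at 3′ UTR positions. Of the positions called higher in S2 cells 15.7% lay in 3′ UTRs, against 6.03% of all positions with 10 reads in each library.

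**Figure D5:**
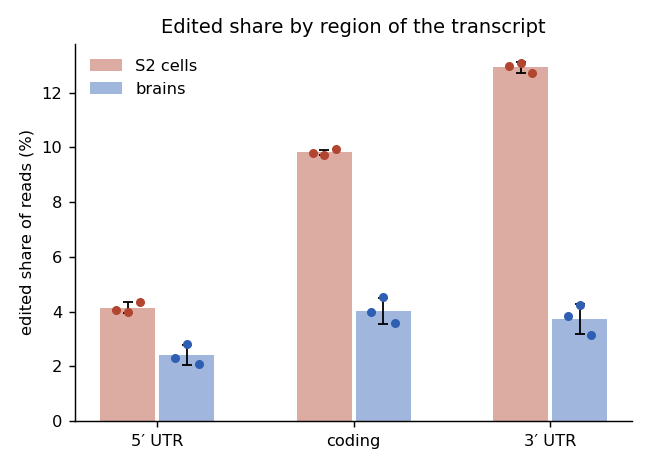
Share of edited reads in percent (y axis) pooled over the positions in 5′ UTRs, coding exons and 3′ UTRs of the 1980 genes, for S2 cells (red) and brains (blue). Bars are means, error bars SDs and dots the 3 replicates, and the 3′ UTR stands above the coding exons in S2 cells (12.9% against 9.82%) and below them in brains (3.74% against 4.03%).

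Editing was highest after T in every library of both tissues, and lowest after G in every S2 library. ADAR is known to favour U (read as T) and to disfavour G as the 5′ neighbour. A position after T was edited in 11.7% ± 0.0425 of reads in S2 cells and 4.58% ± 0.552 in brains, and a position after G in 7.50% ± 0.165 and 3.50% ± 0.224. The ratio of T to G was 1.56 ± 0.0400 in S2 cells and 1.31 ± 0.0801 in brains (exact two-sided permutation p = 0.1), with every induced S2 library above every induced brain library. Positions after A (8.86%) and C (9.02%) lay between them in S2 cells. In brains A and C were both at 3.68%, which differed from G by less than their SDs, and in brain replicate 3 G (3.33%) was above A (3.17%) and C (3.26%).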

How the data were processed

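Total RNA was sequenced by VASA-seq, a method that reads whole transcripts with molecular identifiers. Per the study's methods and the submitters' processing notes, the authors trimmed reads with cutadapt 3.2, removed ribosomal RNA with BWA 0.7.17-r1188, mapped to BDGP6 with STARsolo 2.7.7a, collapsed molecules with UMI-tools 1.1.1, and called variants with GATK 4.1.9.0 on all libraries merged, so that a position need not be well read in each library. The deposited values are fractions per gene, made by the authors as the mean over A-to-G positions of edited reads over all reads. Positions had a QUAL over 250, and those with an AF of 0.95 or more were left out. They were recomputed from the deposited read numbers per position and were equal within 1e-06 for 4998 of 5003 genes. Deposited tables of the authors' own comparisons, with fold changes and p-values, were not used. The names of 10 further libraries in the variant table matched no sample used here, and these libraries were left out.

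Genes had at least 20 reads in each of the 6 samples. Levels were tested with limma 3.58.1 (R 4.3.3; lmFit and eBayes, two-sided) over all 4464 genes with a frequency above 0 in any of the 6 samples, ranks over the 1980 genes, and positions over those with at least 10 reads in each sample, with Benjamini-Hochberg adjusted p under 0.05 as the threshold. All adjusted p-values in the text are from these limma fits unless another is named. The study's methods describe the brain libraries as biological triplicates and the S2 libraries as triplicate experiments. Means over genes were compared by an exact permutation test over samples. Limits for a count of 0 are 3 reads over the reads pooled over a group, and cover counting error only. Annotation came from the BDGP6.54 release. In simulated data with 200 of 1973 genes raised 3-fold, 59.5% were recovered and 0.226% of the others were called. Reads were drawn there with counting error only, without further spread between replicates, and the other genes were left unchanged. In the real data most genes differed, so these values are not the error rate or the power of the real test.

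The genes named are those in the lists of study-named and fusion genes, the 8 with the largest level or rank difference each way (at least 3 positions, no overlap between replicates), the 6 with the highest lower group mean, and up to 3 per gene list. Positions named had no edited read in the uninduced libraries, lay outside 2R, and were the 4 highest in both tissues or most different each way. Exceptions are marked in the text. The members and lists were chosen with earlier results of these data known. Python 3.11.15, numpy 2.4.6, pandas 2.3.3, scipy 1.17.1 and matplotlib 3.10.9 were used. Alternatives were another threshold, gene set, read minimum, weighting, call quality, scale, model, depth, block and sets of replicates.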

Additional observations from a re-analysis of the deposited data

How the results depend on the processing

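Numbers of genes called higher in S2 cells and in brains by level were 844 and 12. They became 39 and 25 after division by the mean of each library, and 1 gene was left for brains without positions edited in an uninduced library. With positions of 10 reads in each sample 339 were called for S2 cells, with thinned reads 298, and with a minimum of 50 reads 5 were called for brains. Leaving out 1 replicate gave 381 to 794 for S2 cells and 8 to 11 for brains. By rank, 44 and 47 became 91 and 101 at an unadjusted p under 0.01, 25 and 17 with positions of 10 reads, 10 and 11 without positions edited in an uninduced library, and 25 and 30 with thinned reads. For brains alone the rank count was 72 with ranks over all genes, 81 with all 14 samples and 27 with a minimum of 50 reads. Leaving out 1 replicate gave 1 to 50 and 12 to 46. By position, 395 and 16 became 160 and 8 with 20 reads per sample. The count for S2 cells was 19 after division by the mean, that for brains 9 without positions edited in an uninduced library, and leaving out 1 replicate gave 35 to 478 and 6 to 13. The cause of these changes was not tested.

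Same-numbered replicates did not deviate together (correlations of -0.0401, -0.00315 and 0.0292), and not every sample correlated best with its own number, so the numbers were not read as pairs. With a replicate block, limma called 10 and 5 genes by level, 0 and 8 by rank, and 251 and 8 positions. In that rank fit 206 genes were higher in S2 cells and 199 in brains at an unadjusted p under 0.05.

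The mean difference of 7.11 percentage points was 5.0 with positions of 10 reads and 5.84 with pooled reads, and 6.88 to 7.33 without 1 replicate. The difference of 0.391 in the 3′ UTR to coding ratio was 0.313 as a mean over positions, 0.443 without uninduced editing and 0.624 with positions of 10 reads. It was 0.460 in genes with both kinds of position and no uninduced editing, 0.435 for these as a mean over positions, and 0.369 to 0.408 without 1 replicate.

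Over the genes named, 1030 alternative values kept their direction and side of the threshold, 256 lost and 37 gained significance, and 39 turned direction. In percentage points, S2 cells minus brains, those that turned without positions edited in an uninduced library were CG34133 (0.296), olf413 (2.61), Act5C (5.76), CG2765 (4.92), TBPH (11.1), emc (2.22), Lpin (1.36), pigs (1.67), unc-13 (1.06), BOD1 (17.6) and lola (-1.62). After division by the library mean, rescaled to the mean over the 6 libraries, pzg (-1.14), cbt (-2.88), Fmr1 (-2.61), Ino80 (-18.3), Crtc (-11.9), CG8878 (-12.4), CG4911 (-13.8), shtd (-9.86), eEF1alpha1 (-0.497), lola (-2.27), Dhc64C (-7.48) and nej (-6.06) turned. With positions of 10 reads Khc (1.90), Cortactin (-0.207), CG2765 (2.78), lap (0.392) and CCT1 (0.344) turned. With reads pooled Khc (1.35) and BOD1 (7.03) turned, as they did in the quasi-binomial model (0.769 and 0.375, log odds). Without 1 replicate Khc ranged from -1.67 to 0.947, cbt from -0.957 to 1.67, and unc-13 from -1.80 to 0.822.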
